A study of Danio rerio with 25 samples.

Results

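Zebrafish embryos exposed to 250 μg/L citalopram were compared with unexposed embryos in whole-embryo RNA at 48 h post-fertilization (hpf). All 31446 transcripts listed in the deposited comparison of these groups were taken, of 32963 listed for any dose of the series. Of them, 31336 had a group mean above 0 in both groups, 84 had a mean of 0 in control and 26 had a mean of 0 at 250 μg/L. Transcripts with a mean of 0 in one group are described apart from the rest. Each group held 5 libraries of 50 pooled wild-type embryos, and the series had 25 libraries in 5 groups (untreated controls and 4 citalopram groups, at 250, 50, 0.9 or 0.03 μg/L). Treated embryos were in citalopram hydrobromide from 0 to 24 hpf by the sample labels and then developed without drug up to 48 hpf. The written methods place the start of exposure later than the labels do, within the first hours after fertilization. Control embryos were kept in the same Danieau medium without citalopram. All groups shared 1 batch label. The treatment text attached to the samples names other drugs, whereas the titles and the treatment fields name citalopram, and the latter were followed.

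Citalopram is a selective serotonin reuptake inhibitor. It blocks the serotonin transporter of the neuronal membrane, which returns released serotonin to the cell. Serotonin also acts as a signal in the early embryo, before and during the formation of the nervous system, and in zebrafish serotonergic neurons of the hindbrain arise within the window studied here. A whole-embryo library mixes all tissues. A difference in the share of a cell type and a difference in RNA per cell cannot be told apart from group means alone. The study estimated cell-type shares with a single-cell reference and reported no significant change at any dose. That estimate was not repeated here.

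The values are the authors' mean normalized counts of each group, 1 per transcript and group. No values of single libraries were used, so no replicate error, standard deviation or test accompanies any value, and no difference given here is shown to exceed the spread between libraries. The files list transcripts by Ensembl transcript identifier, and 0 of the 31446 identifiers were matched to a gene name. Gene groups and tissue markers were therefore not examined, the labelled tissue was not checked against markers, and 4 transcripts are named by identifier.

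The normalized counts of both groups had nearly the same total level. The authors' scaling between libraries bears on this, so it is not read as a result about the embryos. The group means summed to 27493493 normalized counts at 250 μg/L and 27603340 in control, a ratio of 0.996. The median transcript stood at 166.9 normalized counts at 250 μg/L and 164.3 in control. The 10 most abundant transcripts held 22.3% of the sum at 250 μg/L and 22.9% in control, and 9 of these 10 were the same in both groups. Among the 100 most abundant at 250 μg/L, 97 were also among the 100 most abundant in control. The most abundant transcript alone took 8.86% of the sum at 250 μg/L and 9.36% in control.

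Most transcripts had similar means at 250 μg/L and in control. Over the 31336 transcripts with both means above 0, the log2 ratio of 250 μg/L over control had a median of 0.01, a lower quartile of -0.11 and an upper quartile of 0.13. The median size of the ratio, without regard to sign, was 0.12 on the log2 scale, a 1.09-fold difference. The ratio was above 0 for 16144 transcripts and below 0 for 15192, so the higher side held 51.5%. The 1st percentile was -0.92 and the 99th percentile was 1.22, so the tail on the higher side was longer. The extremes were -3.74 and 5.34.

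The study's fold threshold is an absolute log2 ratio above 0.6, a 1.52-fold difference, and 94.2% of the transcripts lay within it. The study called a transcript only where its adjusted p-value was significant as well. That condition was not applied here, so the counts past the fold threshold are not the study's calls. Past this threshold, 1067 transcripts were higher at 250 μg/L (3.41% of those with both means above 0) and 745 were lower (2.38%). Past an absolute log2 ratio of 1, 451 were higher (1.44%) and 264 were lower (0.842%). The higher side held more transcripts than the lower at each limit tried. At more than 4-fold, 110 were higher and 39 lower, and at more than 8-fold, 27 were higher and 12 lower.

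**Figure D1:**
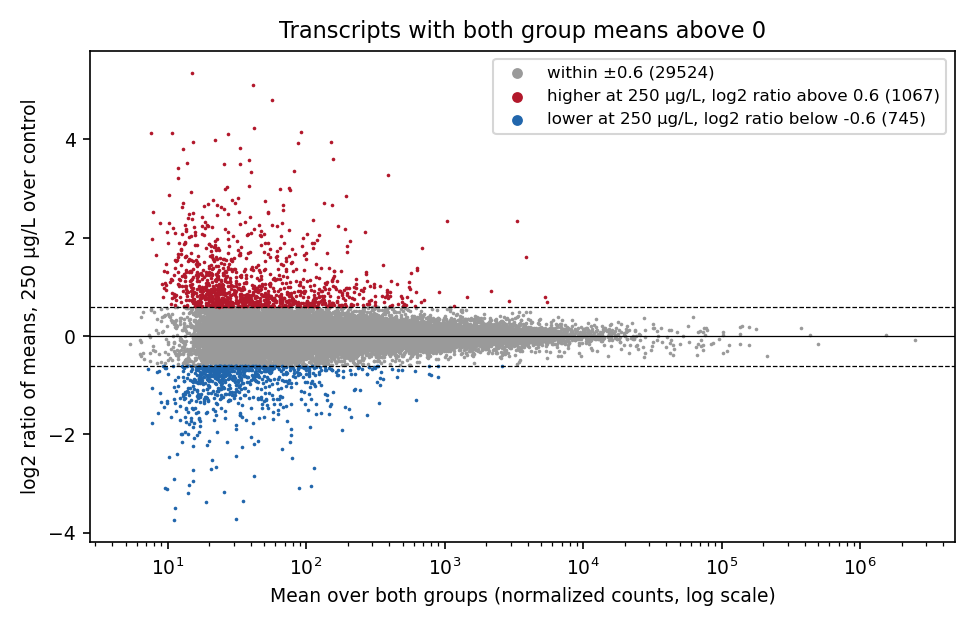
Mean over both groups (horizontal axis, normalized counts on a log scale) against the log2 ratio of 250 μg/L over control (vertical axis) for the 31336 transcripts with both means above 0. Each point is 1 transcript, the dashed lines stand at ±0.6, and the 1067 red and 745 blue points past them lie mostly at low means.

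Transcripts past the threshold were mostly of low abundance. Their median mean over both groups was 34.8 normalized counts for those higher at 250 μg/L and 29.1 for those lower, beside 167.0 for all transcripts with both means above 0. Of the 1812 past the threshold in either direction, 1510 (83.3%) had a mean under 100, whereas 37.9% of all transcripts did. Between 10 and 30 normalized counts, 458 of 3481 transcripts were higher and 368 lower, and the robust SD of the log2 ratio (its interquartile range scaled to a normal SD) was 0.44. Between 100 and 300, 158 of 8150 were higher and 70 lower, with a robust SD of 0.17. Between 300 and 1000, 42 of 7162 were higher and 22 lower, with a robust SD of 0.12. At 10000 or more, 0 of 236 passed in either direction, and their log2 ratios ran from -0.42 to 0.39. The share past the threshold was thus smaller at higher abundance in both directions, and the higher side held more transcripts than the lower in each range from 10 to 10000.

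**Figure D2:**
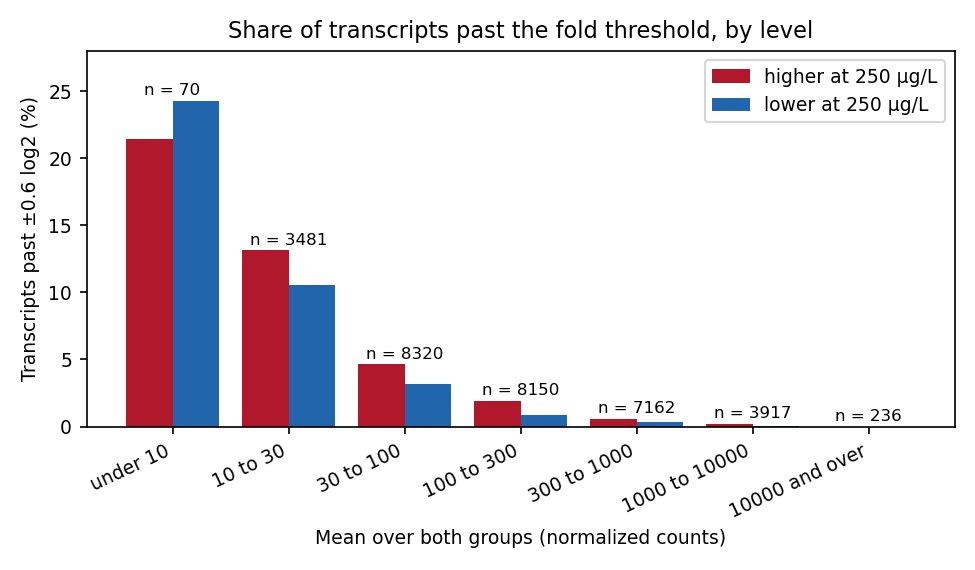
Share of transcripts past an absolute log2 ratio of 0.6 (vertical axis, %) in 7 ranges of the mean over both groups (horizontal axis, normalized counts), with the number of transcripts above each pair of bars. Red bars are transcripts higher and blue bars transcripts lower at 250 μg/L, and both shrink from the lowest range to the highest, where 0 of 236 passed.

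Only 10 of the 4153 transcripts with a mean of at least 1000 (0.241%) were past the threshold, 9 of them higher at 250 μg/L, and 3 were past 2-fold. The first of these 3 had a mean of 5532 at 250 μg/L and 1087 in control, a 5.09-fold difference. Its means at the other doses were 1357 at 0.03, 1185 at 0.9 and 1253 at 50 μg/L, all close to the control level, so it stood apart at 250 μg/L alone. The next had 1735 at 250 μg/L and 341 in control, a 5.08-fold difference. Its mean was higher still at 0.03 μg/L, at 8217, and it stood at 1051 at 0.9 and 720 at 50 μg/L. The last of the 3 had 5800 at 250 μg/L and 1896 in control, a 3.06-fold difference, beside 20492 at 0.03, 2016 at 0.9 and 1478 at 50 μg/L. The single transcript on the lower side had 2051 at 250 μg/L and 3143 in control, with 1554 at 0.03 μg/L. Of these 4 transcripts, all but the first lay further from control at 0.03 μg/L than at 250 μg/L.

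Among the 24365 transcripts with both means above 0 and a mean of at least 50 over both groups, the highest ratio belonged to ENSDART00000048775.9. Its mean was 109.9 normalized counts at 250 μg/L and 3.95 in control, a log2 ratio of 4.80 with a 95% counting interval of 4.14 to 5.50. The interval is exact (Clopper-Pearson) on 5 times each group mean taken as the count over the group. It is approximate, since normalized counts are not reads, and it holds no variation between libraries and no allowance for the choice of an extreme. It had a mean of 124.2 at 50 μg/L, against 4.03 in control on the scale of that table, and it was not listed at 0.03 or 0.9 μg/L. A transcript not listed at a dose has no known value there. The 10 transcripts with the highest ratios ran from 2.97 to 4.80 on the log2 scale, with medians of 155.5 normalized counts at 250 μg/L and 15.6 in control. Of these 10, 9 were listed at each other dose, but the 9 at 50 μg/L were not those at 0.03 and 0.9 μg/L. The median means of those listed were 349.7 at 0.03, 75.5 at 0.9 and 93.3 at 50 μg/L.

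The lowest ratio in the same set belonged to ENSDART00000013863.7. Its mean was 18.9 normalized counts at 250 μg/L and 159.8 in control, a log2 ratio of -3.08 with a 95% counting interval of -3.41 to -2.78. It had means of 36.7 at 0.03, 17.9 at 0.9 and 34.4 at 50 μg/L, so the control mean was the highest of the 5 groups for this transcript. The 10 transcripts with the lowest ratios ran from -3.08 to -1.85, with medians of 29.5 normalized counts at 250 μg/L and 147.4 in control. Their median means were 45.4 at 0.03, 68.3 at 0.9 and 54.7 at 50 μg/L. These transcripts were chosen by their ratio to the control libraries, which all doses share, so their values at the other doses are set beside each other and nothing is read from their direction.

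The same holds for the wider sets past 2-fold. The 451 transcripts higher at 250 μg/L had a median log2 ratio of 1.45 there, and the 379 of them with both means above 0 at 0.03 μg/L had a median of 1.93 at that dose. For 0.9 μg/L the median was 0.78 over 331 transcripts, and for 50 μg/L it was 0.82 over 336. The 264 transcripts lower at 250 μg/L had a median of -1.32 there, and medians at 0.03, 0.9 and 50 μg/L of -0.58, -0.51 and -0.61. Over the transcripts with both means above 0 at each dose, the higher set had its largest median at 0.03 μg/L. The lower set had its median furthest from 0 at 250 μg/L, the dose by which both were chosen. The listing filter bears on which transcripts enter at the other doses. These medians thus cover unlike sets, and nothing is read from their order.

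The 84 transcripts with a mean of 0 in control (0.267% of those listed) had means at 250 μg/L from 13.8 to 513.0 normalized counts, with a median of 34.6. Of them, 57 had a mean under 50 and 12 a mean of at least 100. A count of 0 over the group allows up to 3 counts over its 5 libraries, a mean of 0.6, and against this floor the 84 were at least 23.0-fold higher at 250 μg/L for the lowest and at least 57.6-fold higher for the median. These bounds allow for counting error in the group at 0 only, and the mean of the other group enters as given. They hold no variation between libraries. A mean made by 1 library cannot be told from a mean made by 5. Just outside this class, 2 transcripts had a control mean above 0 and under 1, the lower at 0.72, and their means at 250 μg/L were 14.5 and 29.4. Together the 84 made up 0.0183% of the sum at 250 μg/L. A transcript at 0 in control is listed only where its treated mean passed the filter of the listing, whose rule no source used here states, so it had to be higher at 250 μg/L.

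The most abundant of the 84 was ENSDART00000187813.1, which stood at 513.0 normalized counts at 250 μg/L and 0 in control, at least 855-fold higher by the same floor. At 0.03 μg/L its mean was 1313, and it was not listed at 0.9 or 50 μg/L. The listing at 0.03 μg/L held 60 of the 84, that at 0.9 μg/L held 12 and that at 50 μg/L held 15, and 7 were in all of them. The 60 had a median of 99.96 normalized counts at 0.03 μg/L, beside 39.3 for the same transcripts at 250 μg/L, and 53 of the 60 were higher at 0.03 μg/L once both tables were put on 1 scale. The 20 listed at no other dose were lower, with a median of 22.3 at 250 μg/L and a highest mean of 111.6. More of these transcripts were thus listed at the lowest dose than at the doses in between. The listing filter bears on these counts and on the levels of the 60. With a control mean of 0, a transcript is listed at 0.03 μg/L only where its mean there passed the filter. The higher level of the 60 at 0.03 μg/L is thus not read as a result.

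The 26 transcripts with a mean of 0 at 250 μg/L (0.0827% of those listed) had control means from 12.3 to 219.0 normalized counts, with a median of 29.3, and 1 of them had a control mean of at least 100. Against the same floor they were at least 20.5-fold lower for the lowest and at least 48.9-fold lower for the median. No transcript had a mean above 0 and under 1 at 250 μg/L, where the lowest mean above 0 was 1.56. All 26 were listed at every dose. They entered the listing through the control libraries, which all doses share, so this is not read as a result. The treated mean was 0 as well at 0.03 μg/L for 9 of the 26, at 0.9 μg/L for 9 and at 50 μg/L for 6. For 12 of the 26 it was 0 at 250 μg/L alone among the 5 groups, and for 2 it was 0 at every dose. The 26 were chosen by their level against the shared control libraries. The share of all listed transcripts at 0 at the other doses is not given here. These counts are thus not read as a result.

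The most abundant of the 26 was ENSDART00000088094.6, at 219.0 normalized counts in control and 0 at 250 μg/L, at least 365-fold lower by the floor. Its mean was 200.5 at 0.03, 111.7 at 0.9 and 6.04 at 50 μg/L. The treated means of this transcript stood lower at each higher dose, and this order was not tested. The last step to 0 was fixed by the choice of transcripts at 0 at 250 μg/L. The order is not that of the class. Another of the 26 stood at 25.5 at 0.03, 34.6 at 0.9 and 56.5 at 50 μg/L.

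**Figure D3:**
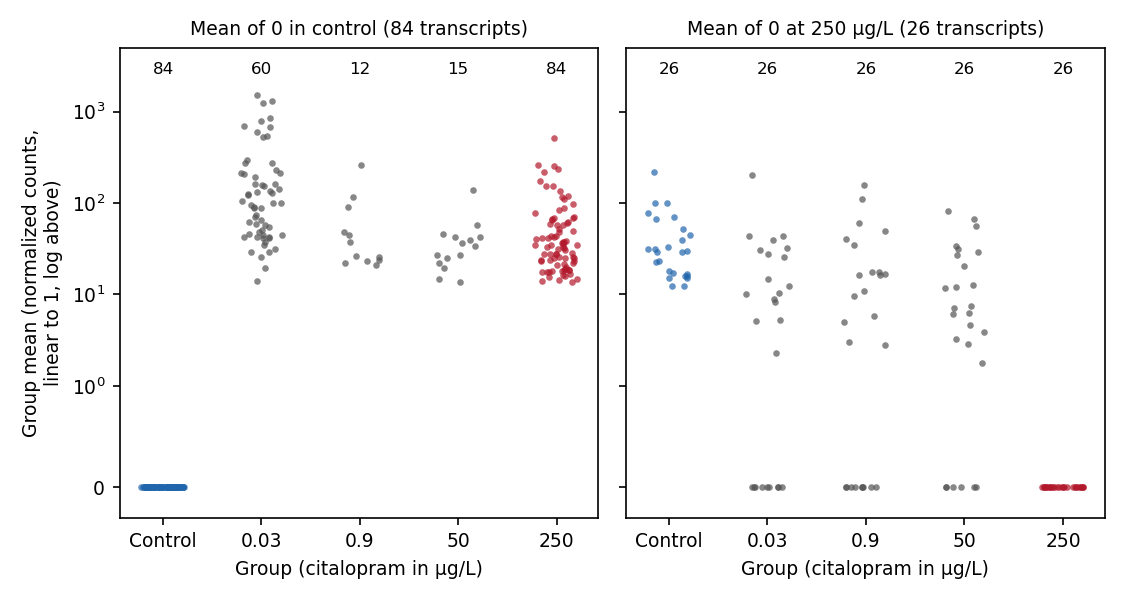
Group means (vertical axis, normalized counts, linear up to 1 and log above) of the 84 transcripts at 0 in control and the 26 at 0 at 250 μg/L, by group (horizontal axis). Each point is 1 transcript and the number over each column counts those listed, which is 60 at 0.03 μg/L and 12 at 0.9 μg/L for the first class and 26 throughout for the second. The listing filter bears on these numbers.

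The ratio of 250 μg/L to control was set beside those of the other pairs of groups to show its size. The control columns were proportional to each other across the 4 tables, and treated means were brought to the scale of the 250 μg/L table by the median ratio of these columns (1.03 for 0.03 μg/L, 1.00 for 0.9 μg/L and 1.02 for 50 μg/L). Over the 30133 transcripts above 0 in all 5 groups, the robust SD of the log2 ratio was 0.17 between 250 μg/L and control. It was 0.34 between 0.03 μg/L and control, 0.13 between 0.9 μg/L and control and 0.20 between 50 μg/L and control. Between 250 μg/L and another treated group it was 0.29 with 0.03 μg/L as the partner, 0.16 with 0.9 μg/L and 0.16 with 50 μg/L. By this measure the ratios of 250 μg/L to 0.9 and 50 μg/L were spread about as widely as those to control. The spread also holds variation between libraries, which was not measured. The pair of 0.9 and 50 μg/L gave 0.18. The pairs of 0.03 μg/L with 0.9 and 50 μg/L gave 0.34 and 0.35, so every pair with 0.03 μg/L was wider than every pair without it.

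The share of these transcripts past an absolute log2 ratio of 0.6 was likewise larger in every pair with 0.03 μg/L than in every pair without it, but the order of the other pairs changed. It was 4.74% for 250 μg/L against control (767 higher, 2.55%, and 662 lower, 2.2%), 13.5% for 0.03 μg/L, 3.49% for 0.9 μg/L and 4.55% for 50 μg/L. Between 250 μg/L and another treated group it came to 10.1% with 0.03 μg/L as the partner, 4.02% with 0.9 μg/L and 3.99% with 50 μg/L. The remaining pairs gave 13.3% for 0.03 with 0.9 μg/L, 13.9% for 0.03 with 50 μg/L and 4.13% for 0.9 with 50 μg/L. Among the 6 pairs that leave out 0.03 μg/L the share ran from 3.49% to 4.74%, and 250 μg/L against control was the upper end, whereas by robust SD the pairs of 50 μg/L with control and with 0.9 μg/L were wider. Over all transcripts with both means above 0 at 250 μg/L and in control, the shares were 3.41% higher and 2.38% lower. The limit to transcripts listed at every dose and above 0 in all groups thus took more from the higher side.

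**Figure D4:**
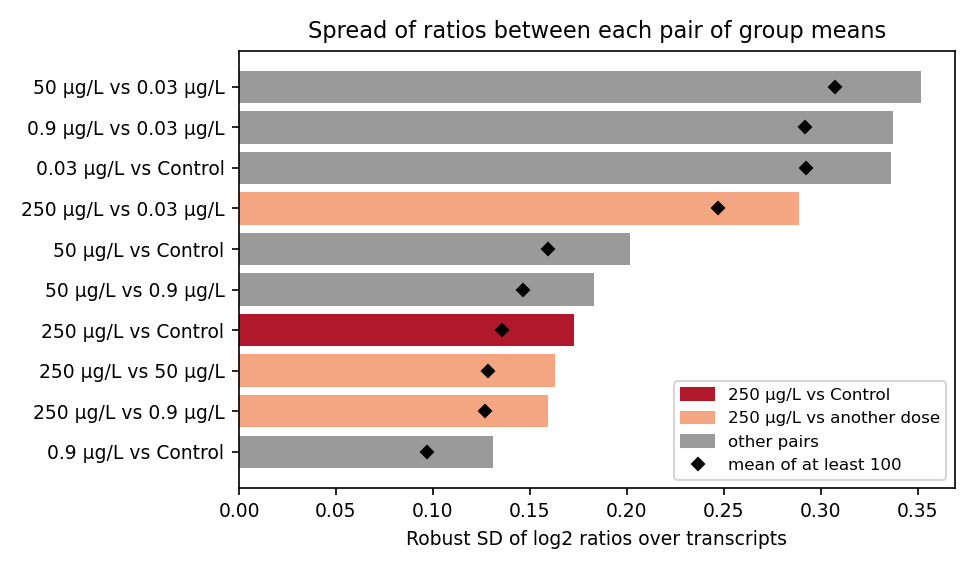
Robust SD of the log2 ratios over 30133 transcripts (horizontal axis) for each of the 10 pairs of groups (vertical axis). Bars are all transcripts above 0 in the 5 groups and diamonds those with a mean of at least 100, and the bar of 250 μg/L against control (0.17) lies among the pairs without 0.03 μg/L.

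The mean at 250 μg/L was seldom at the end of the 5 groups. It was the highest of the 5 for 3045 of the 30133 transcripts (10.1%) and the lowest for 3443 (11.4%), the fewest of any group in both directions. The mean at 0.03 μg/L was the highest for 35.1% and the lowest for 34.2%, and the control mean was the highest for 17.3% and the lowest for 18.8%. For 23645 transcripts (78.5%) the mean at 250 μg/L lay between those of other groups.

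For 6 transcripts the mean at 250 μg/L was more than 2-fold above every other group. The most abundant was the transcript at 5532 normalized counts described above, 4.18-fold over the next group. The second had 282.2 at 250 μg/L, 127.1 at 0.9, 67.1 at 50 and 33.8 at 0.03 μg/L, and 18.4 in control. The third had 228.3 at 250 μg/L beside 105.1 in control and 6.62 at 0.03 μg/L. The other 3 had means from 47.3 to 79.8 at 250 μg/L. More than 2-fold below every other group were 32 transcripts, with a median of 12.6 normalized counts at 250 μg/L and 46.4 in control. The most abundant of them at 250 μg/L had 54.3 there, 153.6 in control, 353.9 at 0.03, 177.9 at 0.9 and 229.7 at 50 μg/L. By the same measure 333 transcripts were highest and 107 lowest at 0.03 μg/L, and 10 were highest and 59 lowest in control. At 0.9 μg/L 8 were highest and 35 lowest, and at 50 μg/L 13 were highest and 59 lowest. These counts cover only transcripts listed at every dose. A transcript high in a single treated group and low in control can be missing from the other listings, and so from these counts. A transcript low in a single treated group can stay listed through the shared control. That more were lowest than highest at 250 μg/L is thus not read as a result.

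Comparisons of doses with the shared control libraries are not independent. Transcripts were therefore also split by the ratio of 0.03 over 0.9 μg/L, which uses none of the 10 libraries at 250 μg/L or in control. The choice of the 30133 transcripts does use these libraries, since each had to be listed at every dose and above 0 in all groups. A transcript low at 0.03 μg/L can stay listed through a high control mean, so the split is not fully independent of the control. This split was chosen after values had been seen. Of the 30133 transcripts, 937 were more than 2-fold higher at 0.03 than at 0.9 μg/L. Their median log2 ratio of 250 μg/L over control was 0.34, with quartiles of -0.0044 and 0.73, and it was above 0 for 696 of them (74.3%). Past 0.6 on the higher side were 301 (32.1%, beside 2.55% of all), and 64 (6.83%) were past it on the lower side. The 342 transcripts more than 2-fold lower at 0.03 than at 0.9 μg/L had a median of -0.19, with quartiles of -0.60 and 0.16, and 34.5% were above 0. Past the threshold on the lower side were 86 of them (25.1%, beside 2.2% of all) and 33 (9.65%) on the higher side. Sets chosen by a 2-fold ratio are not like all transcripts, as the split by 0.9 over 50 μg/L shows below. The 28854 transcripts within 2-fold had a median of 0.0015.

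The split by 0.03 over 50 μg/L gave values of the same sign, with a median of 0.24 for the 961 transcripts higher at 0.03 μg/L and -0.11 for the 365 lower. The split by 0.9 over 50 μg/L gave medians of 0.04 for the 198 higher and 0.03 for the 205 lower. Past 2-fold it thus did not separate the ratios of 250 μg/L over control. Past 0.6 were 24.2% on the higher side and 27.8% on the lower for the 198, and 22.9% and 21.0% for the 205. Shares above those of all transcripts thus also arose in this split, in both directions. Within 2-fold its medians ran the other way, at 0.08 from -0.6 to -0.2 and -0.10 from 0.2 to 0.6. In the split by 0.03 over 50 μg/L the same ranges gave -0.02 and 0.02. At a mean of at least 100 normalized counts, the medians in the split by 0.03 over 0.9 μg/L were 0.41 for 337 transcripts and -0.19 for 63. In the split by 0.03 over 50 μg/L they were 0.33 for 327 and -0.09 for 93, and 43.0% of these 93 were above 0. On the higher side, transcripts that set 0.03 μg/L apart from 0.9 and 50 μg/L thus lay mostly above control at 250 μg/L. The sets were chosen by a ratio past 2-fold, so the smaller size of their ratios at 250 μg/L is not read as a result. On the lower side the medians were closer to 0. The listing filter bears on which transcripts enter on either side, and how far was not tested. Whether libraries of these groups share parents or a collection day beyond the 1 batch label is not known, and its part in this pattern was not tested.

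**Figure D5:**
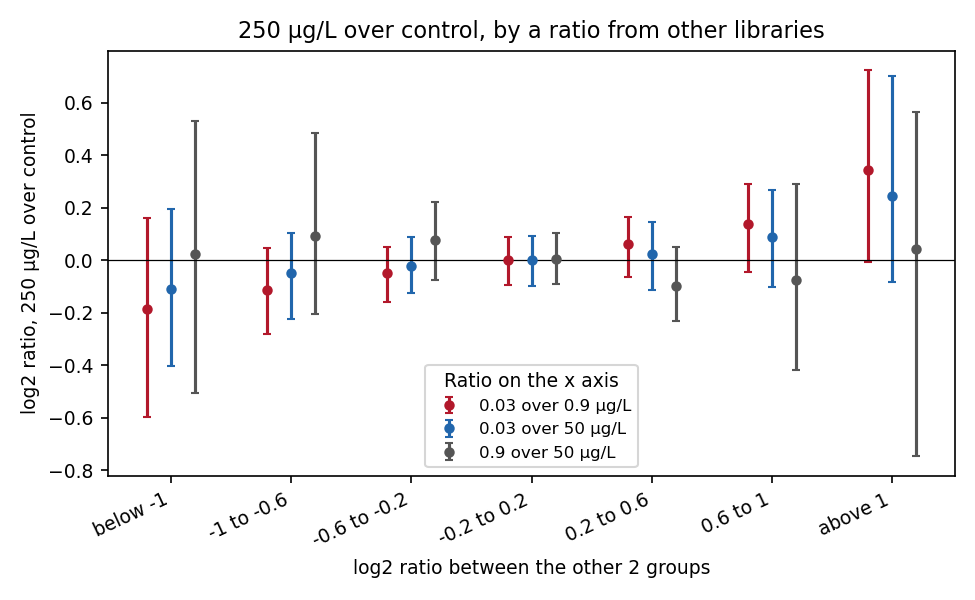
Log2 ratio of 250 μg/L over control (vertical axis) for transcripts in 7 ranges of a log2 ratio between 2 other groups (horizontal axis), over the 30133 transcripts above 0 in all groups. Points are medians and bars run from the lower to the upper quartile over transcripts. The medians climb from -0.19 to 0.34 for 0.03 over 0.9 μg/L. For 0.9 over 50 μg/L they do not climb, and between -0.6 and 0.6 they fall from 0.08 to -0.10.

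The version number at the end of an Ensembl transcript identifier counts the revisions of its model, and version 1 marks a model not revised since it was added. Of all 31446 transcripts, 16.7% carried version 1. Of those within 2-fold it was 16.0%, of the 451 more than 2-fold higher at 250 μg/L 39.0%, and of the 264 more than 2-fold lower 41.7%. It was 47 of the 84 at 0 in control (56.0%) and 16 of the 26 at 0 at 250 μg/L (61.5%). The same comparison was made at like abundance. Between 100 and 300 normalized counts, version 1 was carried by 36.7% of the 49 transcripts more than 2-fold higher, 42.3% of the 26 more than 2-fold lower and 16.6% of the 8075 within 2-fold. Between 10 and 30 it was 40.5% of 232, 45.4% of 141 and 25.4% of 3108. In both ranges the share was larger in either direction than within 2-fold, and this was not tested.

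The listing itself differed between doses. Of the transcripts listed at 250 μg/L, 636 were missing from the listing at 0.03, 737 from that at 0.9 and 777 from that at 50 μg/L, and 245 were listed at 250 μg/L alone. Of those 245, 192 had the higher mean at 250 μg/L and 53 in control. Over all 245 the median was 19.8 normalized counts at 250 μg/L and 14.9 in control. The control libraries are the same in every listing, so the mean at 250 μg/L bears on whether a transcript is listed there alone. The direction and the levels of the 245 are thus not read as a result. In the other direction, 1072 transcripts listed at 0.03 μg/L were not listed at 250 μg/L, and no value of theirs at 250 μg/L is known.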

How the data were processed

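Total RNA was depleted of ribosomal RNA and sequenced. According to the study's methods and the submitters' processing notes, the authors corrected reads, trimmed them with Trimmomatic and used Salmon on the Ensembl GRCz11 transcripts (coding and non-coding) to estimate counts. The authors then ran DESeq2 once per dose, always with the same control libraries. The deposited group means are the authors' counts divided by size factors and averaged over the libraries of a group, used here as a signal that is never negative. Size factors assume that most transcripts do not differ, so a shift common to all would be removed. The tables also hold the authors' fold changes, standard errors, test statistics and p-values, which were not used. No columns of single libraries were used (0), so depth per library is not known. Multi-isoform genes can have reads split between near-identical transcripts, which makes single transcripts uncertain.

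Ratios were computed without a pseudocount in Python 3.11.15 (numpy 2.4.6, pandas 2.3.3, scipy 1.17.1), over transcripts with both means above 0. The code was tested on simulated data. No differential test was run. The named transcripts were the highest and lowest ratio at a mean of at least 50 over both groups, and the most abundant at 0 in either group. Fold bounds used a floor of 3 counts over 5 libraries. The transcripts described and the measures used were chosen with earlier results of these data known. Gene and tissue marker lists were not applied, since no identifier was matched to a gene.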

Additional observations from a re-analysis of the deposited data

How the results depend on the processing

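Of 55 alternative values, 49 stayed within 1.5 times the value given, or for the median ratio within the spread over transcripts. Direction was checked only for the named transcripts with the highest and lowest ratio, and these could not change sign under the settings tried. A minimum mean of 10 could not change the counts of transcripts at 0 in a group, whose other means were all above 10. The counts of transcripts past the threshold depended on abundance and on the threshold. At a mean of at least 100 they were 209 higher (1.07%) and 93 lower (0.478%), in place of 1067 and 745, and past an absolute log2 ratio of 1 they were 451 and 264. The first change goes with the concentration of transcripts past the threshold at low abundance, and the second is the stricter limit itself. A pseudocount of 1 or 5, equal sums, centring, a minimum mean of 10, or setting a group at 0 to the floor kept the counts within that range. No paired analysis was possible because single libraries were not used, and for the same reason no replicate could be left out. The alternative that sums transcripts per gene was not run. Depth per library is not known, and the spread between libraries was not measured. Most transcripts past the threshold had a mean under 100 normalized counts.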
